A study of Sus scrofa with 6 samples.

Results

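The interferon response and innate sensing genes of porcine granulosa cells (GCs), the somatic cells that surround the oocyte, comprised 54 of the 17950 genes with a deposited value. They were taken by name alone, from a table of Ensembl pig gene names that held a symbol for 10489 of the 17950 genes. A name qualified when it began with IRF, STAT and a digit, IFI, IFIT, IFNA, *IFNG*, OAS, GBP, TLR or JAK, or when it was one of a short set of further genes such as *MX1*, *MX2*, *RSAD2*, *RIGI*, *MAVS*, *STING1*, *MYD88*, *CD14*, *LY96*, *USP18* and *ADAR*. The table of names held 72 such names. The other 18, among them *ISG15*, *BST2*, *OAS1*, *IFIT3*, *IFI6*, *TBK1*, *STAT6*, *TLR8*, *IFNAR1*, *IFNAR2* and *IFNG*, were not analysed here. By role, the 54 genes fell into 16 sensors and adaptors, 1 interferon receptor gene, 9 JAK kinases and STAT factors, 7 interferon regulatory factors (IRFs) and 17 effectors. The remaining 4, *IRF2BPL* and *JAKMIP1* to *JAKMIP3*, share only the start of their name with these families.

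Both groups were primary GCs aspirated from ovarian follicles of pre-pubertal Landrace gilts and infected for 72 h. The pLVX-*RBP4* group received a lentivirus with the pLVX-IRES-ZsGreen vector carrying porcine *RBP4*, which encodes the plasma carrier of retinol, and the CTRL group received the same vector without *RBP4*. All 6 libraries, 3 in each group, thus came from infected cells. With no uninfected cells analysed, the level of a gene and the effect of infection on it cannot be told apart.

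Cells detect viral nucleic acid and bacterial products through sensors on the cell surface, in endosomes and in the cytosol, among them the toll-like receptors (TLRs), *RIGI* and *IFIH1*. Adaptors such as *MYD88*, *MAVS* and *STING1* pass the signal to IRF and NF-kappaB factors, which switch on interferon genes. Secreted interferon binds its receptors, JAK kinases phosphorylate STAT factors, and the STAT-containing complex ISGF3, with *STAT2* and *IRF9* among its subunits, drives a broad set of antiviral effector genes. In the ovary, GCs are not professional immune cells, but they carry part of this sensing machinery.

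The deposited table holds 1 FPKM value per gene and group (fragments scaled to transcript length and to the number of mapped fragments), which the authors made from the 3 libraries of the group. No library was analysed on its own here, so the spread between replicates is unknown and no test between the groups was made. A difference below describes these libraries only. The study lists more reads and a higher mapped share for each pLVX-*RBP4* library than for any CTRL library. The number of fragments behind a single value is unknown. Where a pair of values is given, CTRL comes first and pLVX-*RBP4* follows. Because FPKM is scaled to length, levels can be set side by side between genes. Differences are pLVX-*RBP4* minus CTRL on the log2(FPKM + 1) scale, which understates the change of weakly expressed genes, and were summarised for genes with a mean of at least 1 FPKM. In bulk RNA, fewer cells of a type and less RNA per cell cannot be told apart.

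*RBP4* itself had 1.10 FPKM in CTRL GCs against 92.3 FPKM in pLVX-*RBP4* GCs, a difference of 5.47 in the direction that the group names give. Of 14 granulosa markers, 7 were measured and all 7 had at least 1 FPKM, with *CYP11A1*, the first enzyme of steroid synthesis, the highest at 673 and 669 FPKM. Of these 7, 2 were higher and 5 lower with *RBP4*, and the number higher ran from 1 to 5 when the groups were rescaled as described below. Of the other cell types, *PECAM1* (16.3 and 16.0 FPKM) was the higher of 2 endothelial markers measured, *ACTA2* (644.1 and 687.8 FPKM) the highest of 6 theca and stroma markers, and *GDF9* (3.36 and 3.51 FPKM) the highest of 3 oocyte markers. The other oocyte markers were *DDX4*, listed at 0 and 0.0671 FPKM, and *NOBOX*, listed at 0 in both groups. Among 13 leukocyte markers measured of 19 listed, *TYROBP* was the highest with 7.08 and 8.41 FPKM, and the pan-leukocyte gene *PTPRC* had 0.229 and 0.166 FPKM. The theca and stroma markers summed to 832.4 and 918.6 FPKM. Of the 4 with a mean of at least 1 FPKM, 3 were higher with *RBP4*, and 2 to 3 over the rescalings. The 4th, *PDGFRA*, was lower with 12.6 and 11.2 FPKM. *ACTA2* and *DCN* (168.6 and 210.1 FPKM) were the largest terms of these sums. *LHCGR* (0.209 and 0.0937 FPKM) and *INSL3* (listed at 0 and 0.292 FPKM) were below 1 FPKM and differed in opposite directions. The part of these cell types in the values below was not tested.

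Among the genes of this set with a mean of at least 1 FPKM, 0 differed by 1.5-fold or more between the groups on the log2(FPKM + 1) scale. Of the 54 genes, 41 (75.9%) had a mean of at least 1 FPKM, against 69.0% of all genes. Among these 41 genes, 21 (51.2%) were higher with *RBP4* and 20 were lower. Over all 12382 genes with such a mean, 50.2% were higher. The median difference was 0.016 for the 41 genes and 0.0014 for all genes. A difference of at least 1.5-fold upward was called for 0 of the 41 genes, with 1.49% of all genes called, and a downward one also for 0, with 1.28% of all genes called. At shares this low, a count of 0 among 41 genes lies near the background.

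At a smaller limit of 0.32 on the log2 scale, 3 of the 41 genes were higher, namely *IFI30*, *LY96* and *IFIT1*, and 0 were lower, where 7.11% and 5.31% of all genes passed. The differences of the 41 genes ran from -0.30 for *STING1* to 0.43 for *IFI30*. They lay within 0.1 of 0 for 21 of 41 genes (51.2%), and for 39.4% of all genes. The median size of the difference, regardless of sign, was 0.094 for the 41 genes and 0.13 for all genes. The 5th and 95th percentiles over all genes were -0.33 and 0.37, and 2 of the 41 genes, *IFI30* and *LY96*, lay outside them, both upward.

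**Figure D1:**
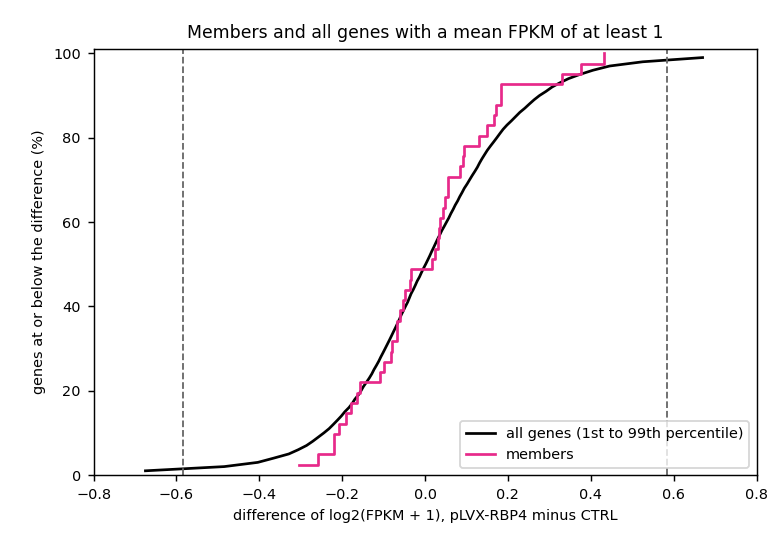
Cumulative share of genes (vertical axis, %) against the difference of log2(FPKM + 1) between the groups (horizontal axis, pLVX-*RBP4* minus CTRL), for the 41 members (pink steps) and for all 12382 genes (black line, drawn from the 1st to the 99th percentile) with a mean of at least 1 FPKM. Dashed lines mark 1.5-fold, and the pink steps lie wholly between them, from -0.30 to 0.43.

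The direction of small differences depended on how the groups were scaled. The deposited values were rescaled in 4 ways, to a common median, a common upper quartile, a common sum, and a common sum without the single gene of the highest level, which held 35.4% of the summed FPKM of the CTRL group and 25.8% of that of the pLVX-*RBP4* group. The number of higher genes among the 41 ran from 9 to 28 over these scalings. The last scaling shifted the median of all genes by -0.11 on the log2 scale, and the common sum shifted it by 0.071. Of the 41 genes, 22 kept their direction under each of the 4 scalings, 9 of them higher with *RBP4* and 13 lower. These are 53.7%, 22.0% and 31.7% of the 41 genes. Over all 12382 genes the shares were 65.3%, 30.1% and 35.1%, so keeping a direction was not more frequent in the set than among all genes. *STAT3* and *IRF7* did so narrowly, since their differences after rescaling to a common sum were -0.0023 and -0.0070. The 9 higher genes were *CD14*, *LY96*, *IFI30*, *IFI35*, *IFI44*, *IFIT1*, *IFIT5*, *ISG20* and *RSAD2*. The 13 lower ones were *STING1*, *TLR5*, *JAK1*, *JAK3*, *STAT3*, *STAT5A*, *STAT5B*, *IRF2*, *IRF7*, *MX1*, *MX2*, *OAS2* and *ADAR*. The other 19 genes changed sign under at least 1 scaling. For those named below, values and differences are given as deposited only, so the direction of such a difference depends on the scaling.

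**Figure D2:**
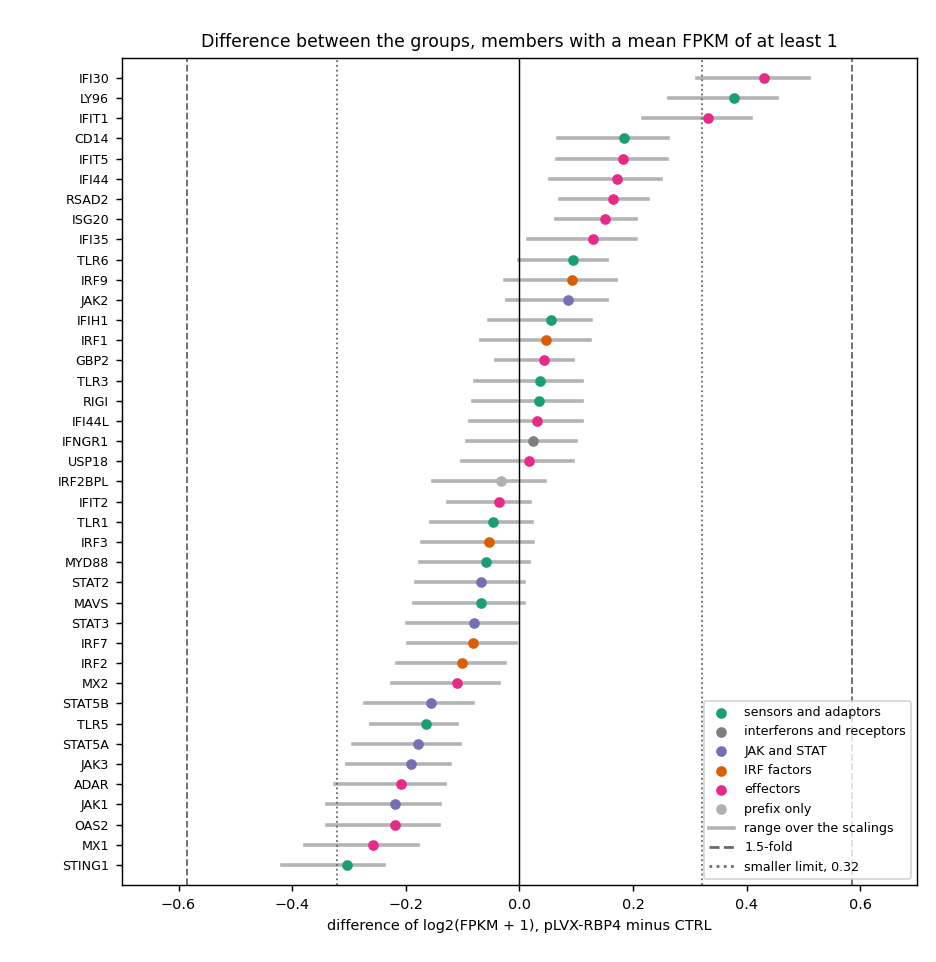
Difference of log2(FPKM + 1) between the groups (horizontal axis, pLVX-*RBP4* minus CTRL) for 40 of the 41 genes with a mean of at least 1 FPKM, coloured by role. Grey bars give the range over the deposited values and the 4 scalings and are not replicate errors. All points and bars lie within 1.5-fold (dashed lines), and the points of 3 genes lie beyond the smaller limit of 0.32 (dotted lines).

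Sensors of the cell surface were represented at very unequal levels. *CD14*, the co-receptor that hands lipopolysaccharide to its receptor complex, had 42.9 FPKM in CTRL and 48.9 FPKM in pLVX-*RBP4* GCs, a difference of 0.18. *LY96* (also called MD-2), the lipopolysaccharide-binding subunit of that complex, had 29.7 and 38.9 FPKM, a difference of 0.38 and a ratio of 1.31, the largest upward difference among the 41 genes after *IFI30*. *TLR4*, the signalling receptor of the same complex, was below the limit of 1 FPKM with 0.941 and 0.569 FPKM. The level of *CD14* was thus 45.6 times that of *TLR4* in CTRL and 86.0 times in pLVX-*RBP4* GCs. For *LY96* the corresponding level ratios were 31.6 and 68.3. In both groups the accessory genes were therefore far above the transmembrane receptor they serve. The ratios rest on *TLR4* values below 1 FPKM, so their difference between the groups cannot be judged.

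*CD14* and *LY96* are also expressed by monocytes and macrophages, so the leukocyte markers are given beside them. Of the 13 markers measured, 7 had a mean of at least 1 FPKM, and 5 of these 7 were higher with *RBP4* (4 of 7 without the top gene in the sum). The 13 values summed to 23.2 and 26.2 FPKM. *FCER1G*, a signalling chain of Fc receptors, had 0.734 and 1.71 FPKM and was the 1 marker past 1.5-fold. The macrophage genes *CD68* (4.02 and 4.59 FPKM) and *CSF1R* (0.414 and 0.428 FPKM) had values above 0. The lymphocyte genes *CD2* and *CD8A* were listed at 0 in CTRL GCs, with 0.0093 FPKM for *CD2* and 0.106 FPKM for *CD8A* in the other group. The part of leukocytes in the differences of *CD14* and *LY96* was not tested.

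Of the 9 TLR genes measured, 4 had a mean of at least 1 FPKM. *TLR3*, the endosomal receptor of double-stranded RNA, was the most abundant with 14.9 and 15.3 FPKM. *TLR1* (7.21 and 6.94 FPKM) and *TLR6* (3.81 and 4.14 FPKM), which pair with *TLR2* to detect bacterial lipopeptides, followed. Their partner *TLR2* had 0.208 and 0.245 FPKM, far below both. *TLR5*, the receptor of flagellin, had 1.82 and 1.52 FPKM, a difference of -0.16. The receptors of single-stranded RNA and of unmethylated DNA, *TLR7* (0.0999 and 0.218 FPKM) and *TLR9* (0.0621 and 0.0279 FPKM), and *TLR10* (0.123 and 0.141 FPKM) were near the bottom of the range. The level of *TLR3* was 149 times that of *TLR7* in CTRL GCs and 70.05 times with *RBP4*. Ratios between groups for *TLR7* and *TLR9* rest on values under 0.22 FPKM, and the number of fragments behind these values is unknown. *TLR1*, *TLR6* and *TLR10* are close paralogs, and how reads shared between them were divided is not known.

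In the cytosol, the RNA sensors *RIGI* and *IFIH1* (also called MDA5) were both expressed, *RIGI* with 22.4 and 22.9 FPKM and *IFIH1* with 9.29 and 9.70 FPKM. *RIGI* exceeded *IFIH1* by a factor of 2.41 in CTRL and 2.36 in pLVX-*RBP4* GCs. *MAVS*, the mitochondrial adaptor of both sensors, had 30.9 and 29.5 FPKM, and *MYD88*, the adaptor of most TLRs, had 22.9 and 21.9 FPKM. The differences of these 4 genes lay between -0.068 and 0.056. *STING1*, the adaptor for cytosolic DNA, was lower at 3.56 and 2.69 FPKM, a difference of -0.30 and a ratio of 0.757, the largest downward difference among the 41 genes. *MAVS* was 8.69 times as abundant as *STING1* in CTRL and 10.9 times in pLVX-*RBP4* GCs. As a group, 6 of the 11 sensors and adaptors with a mean of at least 1 FPKM were higher with *RBP4* and 5 lower (2 to 9 higher over the scalings), and the median difference was 0.034.

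**Figure D3:**
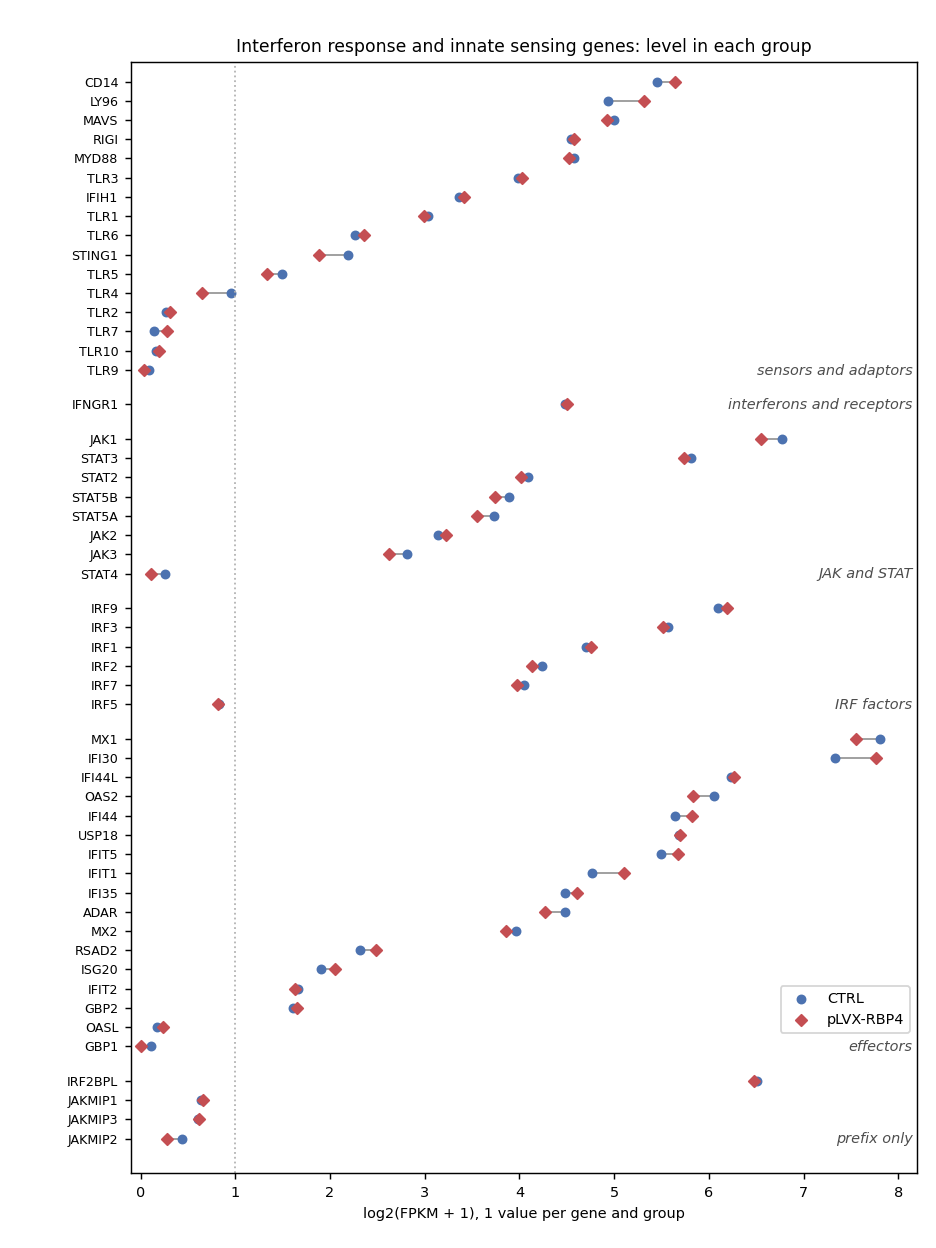
Level of 52 of the 54 genes in the CTRL group (blue circles) and the pLVX-*RBP4* group (red diamonds), as log2(FPKM + 1) with 1 value per gene and group, sorted by mean level within each role. The dotted line marks 1 FPKM. The pair of points of a gene lies close together compared with the distances between genes, which span from values near 0 (*GBP1*, *TLR9*) to 223 and 187 FPKM for *MX1*.

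*IFNGR1*, the ligand-binding chain of the gamma interferon receptor, was the 1 interferon receptor gene measured. Its values of 21.3 and 21.6 FPKM nearly coincided.

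Most JAK kinases and STAT factors had lower values with *RBP4*. Of the 8 with a mean of at least 1 FPKM, 6 were lower, 5 of them under each of the 4 scalings, where 35.1% of all genes were lower under each. The median difference was -0.12 and ran from -0.042 with a common sum to -0.24 without the top gene in the sum. *JAK1*, the kinase that serves both interferon receptor types, had 108.0 and 92.6 FPKM, a difference of -0.22. *JAK3*, which serves receptors with the common gamma chain, had 6.01 and 5.14 FPKM (-0.19), while *JAK2* had 7.82 and 8.35 FPKM. *JAK1* was 13.8 times as abundant as *JAK2* in CTRL and 11.1 times in pLVX-*RBP4* GCs. *STAT5A* had 12.3 and 10.7 FPKM (-0.18) and *STAT5B* 13.9 and 12.3 FPKM (-0.16). These neighbouring paralogs, which act below prolactin and growth hormone receptors, thus differed by similar amounts, and how reads common to both were divided is not known. *STAT3*, which acts below cytokines of the interleukin-6 type, had 55.3 and 52.3 FPKM (-0.081).

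Of the ISGF3 complex, *STAT2* had 16.0 and 15.2 FPKM, a difference of -0.068, and *IRF9* had 67.3 and 71.8 FPKM, a difference of 0.092. Neither kept its direction under each scaling, and *IRF9* was the more abundant in both groups. *STAT4*, which serves interleukin-12 in lymphocytes, had 0.198 and 0.0817 FPKM.

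Among the IRFs, 5 of 7 had a mean of at least 1 FPKM, 2 higher and 3 lower with *RBP4* (0 to 3 higher over the scalings), and the median difference was -0.054. *IRF3*, the constitutive factor activated by *TBK1*, had 46.3 and 44.6 FPKM. *IRF7*, itself an interferon-induced gene and a main driver of alpha interferon genes, had 15.6 and 14.7 FPKM (-0.082). *IRF1*, an activator induced by gamma interferon, had 25.1 and 26.0 FPKM, and *IRF2*, its antagonist, had 17.8 and 16.6 FPKM (-0.100). The differences of these 4 and of *IRF9* lay between -0.10 and 0.092. *IRF5* (0.779 and 0.761 FPKM), known from macrophages, was below 1 FPKM in both groups.

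The effectors included the most abundant genes of the set. Of the 17 effector genes, 15 had a mean of at least 1 FPKM, 10 higher and 5 lower with *RBP4* (7 to 11 higher over the scalings). The median difference was 0.042 as deposited and -0.042 without the top gene in the sum. Under each of the 4 scalings, 7 were higher and 4 lower, where 30.1% and 35.1% of all genes were, so the effectors did not differ in a common direction. Of the 8 members at or above the 90th percentile of all genes by mean level, 4 were effectors, namely *MX1*, *IFI30*, *IFI44L* and *OAS2*.

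On the higher side, *IFI30*, the lysosomal thiol reductase that unfolds antigens for presentation, had 159.8 and 215.7 FPKM, a ratio of 1.35 and a difference of 0.43, the largest upward difference among the 41 genes with a mean of at least 1 FPKM. The study tested genes between the groups with Cuffdiff and names *IFI30* in a supplementary table. That test was not used here. *IFIT1*, which binds viral RNA lacking the host cap methylation, had 26.3 and 33.3 FPKM, a difference of 0.33 and a ratio of 1.27. Its relative *IFIT5* had 44.1 and 50.2 FPKM (0.18), while *IFIT2* had 2.18 and 2.10 FPKM. *IFIT2* was thus the scarce member of this family, and its direction depended on the scaling. *IFI44* had 49.1 and 55.4 FPKM (0.17), and the adjacent paralog *IFI44L* had 74.5 and 76.1 FPKM. *IFI35* had 21.3 and 23.4 FPKM (0.13). *RSAD2* (viperin), which makes a chain-terminating nucleotide, had 3.99 and 4.59 FPKM (0.17), and the exonuclease gene *ISG20* had 2.74 and 3.15 FPKM (0.15). These genes are all known to be induced by type I interferon, apart from *IFI30*, which is best known as a target of gamma interferon.

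On the lower side stood other classical targets of type I interferon. *MX1*, a dynamin-like GTPase that blocks influenza and other viruses, was the most abundant of all 54 genes, with 223 FPKM in CTRL against 187 FPKM in pLVX-*RBP4* GCs, a difference of -0.26 and a ratio of 0.836. Its paralog *MX2* had 14.6 and 13.5 FPKM (-0.11). *OAS2*, which makes the oligoadenylate that activates RNase L, had 65.4 and 56.1 FPKM (-0.22), and *ADAR*, the editor of double-stranded RNA, had 21.3 and 18.3 FPKM (-0.21). Thus *MX1*, *MX2* and *OAS2* were lower with *RBP4* under each scaling while *IFIT1*, *IFIT5* and *IFI44* were higher under each, in the same libraries. The values cannot say whether either difference exceeds the spread between replicates.

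Further effectors had nearly equal values or were scarce. *USP18*, the protease that removes *ISG15* from proteins and dampens interferon signalling, had 50.3 and 50.9 FPKM. *GBP2*, a GTPase induced by gamma interferon, had 2.06 and 2.15 FPKM. *OASL* had 0.130 and 0.183 FPKM. ENSSSCG00000024973, called *GBP1* in the table of names and *GBP5* in a supplementary table of the study, had 0.0788 FPKM in CTRL GCs and was listed at 0 with *RBP4*, the 1 value of 0 in the set. The known targets of gamma interferon were thus not alike in level, *IFI30* being among the most abundant genes and the GBP genes among the scarce ones.

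The 4 genes that share only a prefix differed widely in level. *IRF2BPL*, a nuclear regulator, had 89.97 and 87.9 FPKM. *JAKMIP1*, *JAKMIP2* and *JAKMIP3*, which bind JAK kinases or microtubules in neurons, were below 1 FPKM, with *JAKMIP2* at 0.354 and 0.212 FPKM. Without them, the count past 1.5-fold among the remaining genes was also 0.

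Of 84 further genes of the pathway that the rule does not name, 58 were measured and 51 had a mean of at least 1 FPKM. A difference of 1.5-fold was reached by 0 of the 51, where 1.49% of all genes were called higher and 1.28% lower. Past the limit of 0.32 lay 2 higher and 2 lower genes, where 7.11% and 5.31% of all genes passed. In all, 21 (41.2%) were higher with *RBP4* and 30 lower, with a median difference of -0.019. Over all genes with such a mean, 50.2% were higher and the median was 0.0014. The split followed the scaling, with 36 higher after rescaling to a common sum and 13 without the gene of the highest level.

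Among 27 signalling genes of this wider list, 11 were higher and 16 lower. *NFKB1*, the precursor of the p50 subunit of NF-kappaB, was the most abundant with 142.5 and 176.0 FPKM, followed by *RELA* (58.3 and 54.9 FPKM) and *IRAK1* (54.0 and 52.4 FPKM). Past 0.32 lay *TIRAP*, the bridging adaptor of *TLR4* and *TLR2*, with 7.74 and 10.7 FPKM, and *NOD1*, a sensor of bacterial cell wall peptides, with 20.9 and 16.3 FPKM. Of 20 interferon-induced genes, 7 were higher and 13 lower. The most abundant were *UBE2L6*, the *ISG15*-conjugating enzyme, with 82.2 and 79.9 FPKM, *PML* with 23.2 and 20.03 FPKM, and *HERC6* with 21.9 and 18.7 FPKM. *SAMD9* (5.52 and 7.61 FPKM) and *ZC3HAV1*, the zinc finger antiviral protein gene (14.8 and 11.5 FPKM), were past 0.32 in opposite directions. *CCL5*, a chemokine gene, had 17.7 and 21.1 FPKM.

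The antigen processing genes were few and uneven in level. The proteasome activator genes *PSME1* (239.6 and 248.3 FPKM) and *PSME2* (183.3 and 217.3 FPKM) and *TAPBP* (102.7 and 96.0 FPKM) were abundant. By contrast, *PSMB9*, an immunoproteasome subunit, had 0.499 and 0.217 FPKM, *TAP1* had 0.0219 FPKM in CTRL GCs and was listed at 0 with *RBP4*, and *PSMB8* was listed at 0 in both. A value of 0 in such a table can be a failed estimate, so it is given only as listed.

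**Figure D4:**
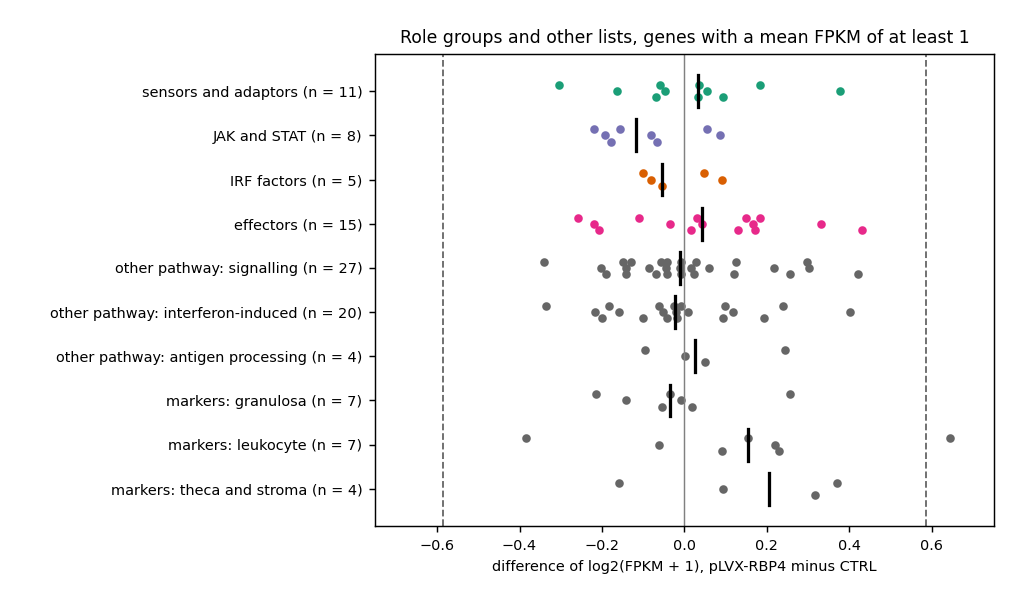
Difference of log2(FPKM + 1) between the groups (horizontal axis, pLVX-*RBP4* minus CTRL) for single genes (points, spread vertically for visibility) in 4 role groups, 3 further pathway lists and 3 lists of cell type markers, with the number of genes in parentheses. Black bars are medians and dashed lines mark 1.5-fold, which *FCER1G* among the leukocyte markers passes and no pathway gene does.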

How the data were processed

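RNA of infected porcine GCs was sequenced in 6 libraries, 3 per group. According to the study's methods, TopHat2 placed the paired-end reads on Sscrofa10.2 and Cuffdiff gave the expression values. Tool versions and the annotation release are not given in the sources used here. The authors deposited an FPKM value for each gene in each group, which covers 3 libraries. Both value columns were used. A log2(FPKM + 1) difference, pLVX-*RBP4* minus CTRL, was computed for genes with a mean of at least 1 FPKM, and a gene was called when it reached 1.5-fold (0.58 on the log2 scale). A limit of 0.32 was an alternative. With 1 value per group no test, SD or p-value was computed, and the number of libraries limits the precision. The number of fragments behind a value is unknown. Members were found by symbol in a table of Ensembl names. Named genes were those past the fold, the 3 most abundant and the 3 with the largest differences in each role, those listed at 0 in 1 group, and, from the further lists, those past 1.5-fold and the 3 most abundant (for markers, the highest). *NOD1*, *TIRAP*, *SAMD9*, *ZC3HAV1*, *CCL5*, *CSF1R*, *CD68*, *CD2*, *CD8A*, *FCER1G*, *PTPRC*, *PSMB8*, *PSMB9* and *TAP1*, and the genes set side by side by their level, were singled out after their values were seen. So were *DCN*, *PDGFRA*, *LHCGR*, *INSL3*, *DDX4* and *NOBOX*. Of the 54 members, 2 enter the counts, medians and sums but are not reported by name here. The members and lists were chosen with earlier results of these data known. Also tried were pseudocounts of 0.1 and 0.01, no filter, a mean of at least 5 FPKM, 3 scalings, no prefix-only names, and 2-fold. A log2 ratio with no pseudocount and the sum without the top gene were added after seeing the data. The procedure was tested on simulated data. Promoter motifs were planned but not searched, as no sequence of these genes was used here. Python 3.11.15, numpy 2.4.6 and pandas 2.3.3 were used.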

Additional observations from a re-analysis of the deposited data

How the results depend on the processing

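The count of members past 1.5-fold was 0 under both smaller pseudocounts, no pseudocount, no filter, a mean of at least 5 FPKM, the 4 scalings, the set without prefix-only names and a limit of 2-fold, and it was 3 at the smaller limit of 0.32. The number of lower members was 20 as deposited and 13 after rescaling to a common sum. Without the gene of the highest level in the sum, a choice made after seeing the data, 9 members were higher and 32 lower, the median difference was -0.10 for the members and -0.11 for all genes, and the role medians were -0.081 for sensors and adaptors, -0.24 for JAK kinases and STAT factors, -0.17 for IRFs and -0.042 for effectors, the last against 0.042 as deposited. The scaling moves all genes together, and 35 of the 41 single differences moved by at least 0.1 under it, against 0 of 41 under the other scalings and pseudocounts. The log2 fold change of *RBP4* was 6.26 and 6.37 with pseudocounts of 0.1 and 0.01 and 6.38 with none. Medians and differences were taken as moved at 0.1, counts at 1.5 times. No paired analysis was possible because the table holds 1 value per group, and no replicate could be left out for the same reason. Differences below 1 FPKM cannot be judged, as the number of fragments behind each value is unknown. The spread between libraries cannot be judged from 1 value per group.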

Other observations

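Several of these genes lie next to each other in the pig genome. By symbol, 51 of the 54 were found in the RefSeq gene table of another assembly (Sscrofa11.1), which was used only for the order of protein-coding genes. With no gene between them, *MX1* and *MX2* had 205 and 14.1 FPKM, a ratio of 14.6. *GBP2* and *GBP1* had 2.10 and 0.0394 FPKM, a ratio of 53.3, and *TLR1* and *TLR10* had 7.08 and 0.132 FPKM, a ratio of 53.7. The place of *GBP1* rests on its symbol, which a supplementary table of the study gives as *GBP5*, so this pair is uncertain. *STAT3* and *STAT5A* had 53.8 and 11.5 FPKM, a ratio of 4.68. *IFIT2* and *IFIT1*, with 1 gene between them, had 2.14 and 29.8 FPKM, a ratio of 13.9. The level ratios of the other adjacent pairs were smaller, with 1.14 for *STAT5A* and *STAT5B*, 1.44 for *IFI44* and *IFI44L* and 1.78 for *TLR1* and *TLR6*.

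A gene that has no symbol in the table of names, ENSSSCG00000031002, is called *IFNA1* in a supplementary table of the study. It had 0.149 FPKM in CTRL GCs and was listed at 0 with *RBP4*. It is not counted among the 54 genes, and with a mean below 1 FPKM it would not enter any summary given here.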
